A study of Mus musculus with 2 samples.

Results

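Ighm and Trbc2 are genes of antigen receptors, and here they are described in coronal sections of mouse brain. Ighm encodes the constant region of the mu heavy chain of IgM, the first antibody class a B cell makes. Trbc2 encodes one of the constant regions of the beta chain of the T cell receptor. They were chosen as 2 of the 32285 measured genes because earlier values of these data placed them in deep cortex, so their levels below are a description and carry no test against other regions. RNA was counted with the Visium assay, in which barcoded spots that each cover several cells capture polyadenylated RNA and single molecules are told apart by unique molecular identifiers (UMIs).

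The study compared no treatments in these data. It measured 1 section from each of 2 mice (n = 2, 1 group), with no untreated section. Both mice expressed hM3Dq, an engineered receptor that the drug CNO switches on, and both were given CNO. The genotype label of mouse 1 reads C57BL/6J control, whereas that of mouse 2 names a CRISPR-Cas9 edited isogenic control. The sections lay 1.9 mm posterior to bregma, away from the injection site at 4.6 mm, and the labels used here do not say which side of the image was injected or which cells carried hM3Dq.

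In lymphocytes the receptor genes become productive after V, D and J segments are joined by the Rag recombinase, and the receptor reaches the cell surface with partners such as Cd79a in B cells and Cd3e in T cells. Antibody also needs a light chain, most often kappa, encoded by Igkc. Layer 6 is the deepest full layer of the neocortex, lies on the white matter and holds neurons that project to the thalamus. Tbr1, a transcription factor of early-born cortical neurons, Myl4, a myosin light chain, and Vxn, the gene for vexin, are used as its markers here.

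Mouse 1 gave 30671753 UMIs, with a median of 7556.5 per spot over the 3712 spots used, and mouse 2 gave 55315952, with a median of 14663 over 3548 spots. The sections share 3369 spot barcodes because the slide layout is the same, not because they share tissue. Spots fell into 16 regions by clustering that left out both genes and all antigen receptor lists. The layer 6 region held 145 spots in mouse 1 and 105 in mouse 2, and 7 of 11 layer 6 markers were among its 100 leading genes, with Vxn and Myl4 in front. The only other neocortical region was led by Lamp5 and held 440 and 307 spots. It mixed markers of layer 5, retrosplenial cortex and layer 6, so it is called the Lamp5-led cortex. Its 100 leading genes also held 1 layer 4 and 1 upper-layer marker. It thus stands for all other spots named neocortical, not for a single layer. The white matter under the cortex, led by Sst, Opalin and Ccn2, held 182 and 208 spots. The labelled dorsal hippocampus was present, with 6 of 7 dentate markers and 6 of 6 CA1 markers leading regions of their own. A spot's count cannot tell more cells of a type from more RNA per cell.

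Ighm lies on chromosome 12 from 113418826 to 113422730 and Trbc2 on chromosome 6 from 41546730 to 41548181, in RefSeq's annotation of the mm10 build, where both are constant-region genes. Trbc1, a near-identical copy of Trbc2, starts at 41538219 on the same chromosome, so the split of counts between these copies is uncertain. Trbc1 received 1 UMI in mouse 1 and 17 in mouse 2, none of them in the layer 6 region.

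**Figure D1:**
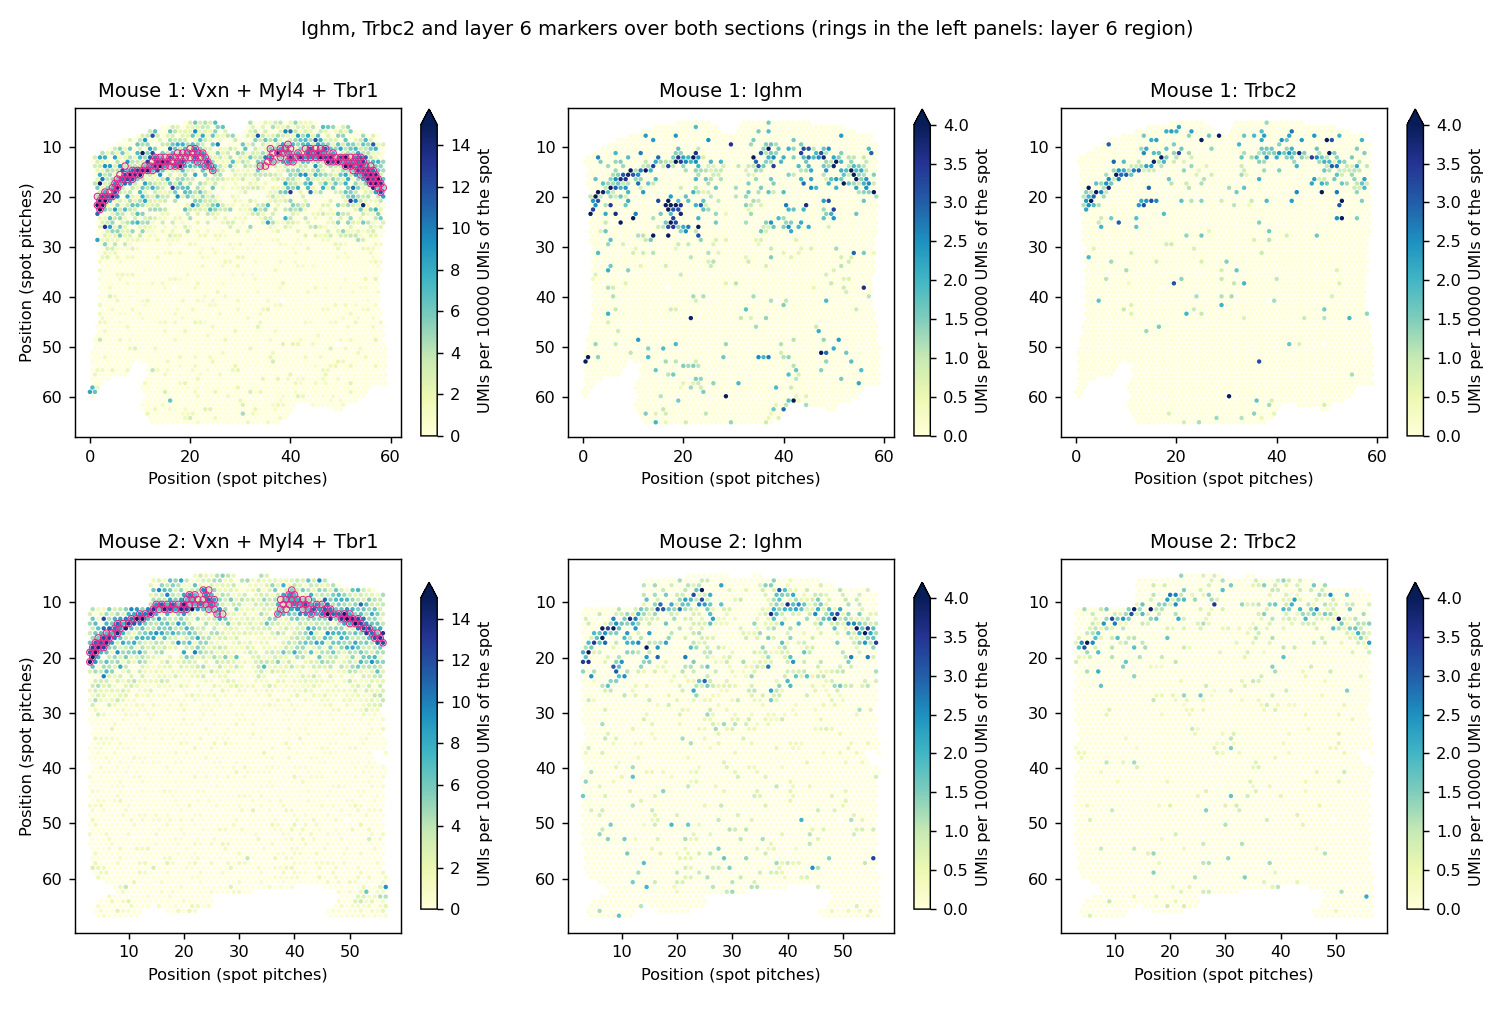
Each point is a spot placed by its position in spot pitches, with mouse 1 above and mouse 2 below. Colour gives UMIs per 10000 UMIs of the spot, capped at the top of each scale, for the summed layer 6 markers (left, with the 145 and 105 spots of the layer 6 region ringed), Ighm (middle) and Trbc2 (right). Both genes follow the arc of deep cortex on both sides of both sections, and mouse 1 also has a group of high Ighm spots in the hippocampus on the left.

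Ighm was highest in the layer 6 region of both mice. Its level there was 165 CPM (UMIs per 1000000 UMIs of the region) in mouse 1, from 216 UMIs, and 181 CPM in mouse 2, from 307 UMIs. The exact Poisson 95% intervals, which cover counting error only, ran from 144 to 188 and from 161 to 202. In the Lamp5-led cortex Ighm was at 27.0 CPM in mouse 1 and 42.0 CPM in mouse 2, and in the cortical white matter at 61.7 and 55.2 CPM. The main thalamic region held 5.97 and 6.96 CPM. The layer 6 region carried 25.6% and 23.4% of all Ighm UMIs on 4.27% and 3.07% of all UMIs.

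Trbc2 was also highest in the layer 6 region of both mice. In the layer 6 region it was at 121 CPM in mouse 1 (158 UMIs, interval 103 to 141) and at 108 CPM in mouse 2 (184 UMIs, interval 93.3 to 125). The Lamp5-led cortex held 26.6 and 32.3 CPM and the cortical white matter 28.9 and 28.1 CPM. The thalamic region held 3.44 and 3.68 CPM. The layer 6 region carried 39.5% of the Trbc2 UMIs in mouse 1 and 28.8% in mouse 2.

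The order of the other regions differed between the genes. For Ighm the mean of the mice was 173 ± 11.3 CPM (SD, n = 2) in the layer 6 region, followed by the dentate granule layer at 67.1 ± 29.8, the cortical white matter at 58.5 ± 4.61, the hippocampal neuropil at 54.1 ± 24.9 and CA1 at 40.5 ± 5.84. Among these neighbours the mice's values did not overlap between the layer 6 region and the dentate layer, and they overlapped between each of the others and the next. For Trbc2 the mean was 115 ± 8.66 CPM in the layer 6 region, then 29.4 ± 4.01 in the Lamp5-led cortex, 28.5 ± 0.597 in the cortical white matter and 19.8 ± 6.04 in an unnamed region led by Calb2, Nptxr and Gbx2. Trbc2 values of the mice did not overlap between the layer 6 region and the Lamp5-led cortex, between the cortical white matter and the Calb2-Gbx2 region, or between CA1 and the hypothalamus.

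In the dentate granule layer the genes differed. Ighm was at 88.2 CPM there in mouse 1 and at 46.1 in mouse 2. Trbc2 had 0 UMIs in mouse 1, which allows up to 6.01 CPM, and 5.29 CPM in mouse 2 from 7 UMIs. The choroid plexus also held no Trbc2 UMI in mouse 1, which allows up to 3.61 CPM, and 6.57 CPM in mouse 2, against 27.7 and 14.1 CPM of Ighm. Both regions also held Igkc, with means of the mice of 59.6 ± 23.4 CPM (dentate layer) and 91.98 ± 21.2 CPM (choroid plexus). The layer 6 region held 2.03 ± 0.37 CPM of Igkc. In mouse 1 a single choroid plexus spot held 8 Ighm UMIs beside 7 of Igkc. How much of the Ighm in each of these regions lay in spots with Igkc was not tested.

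**Figure D2:**
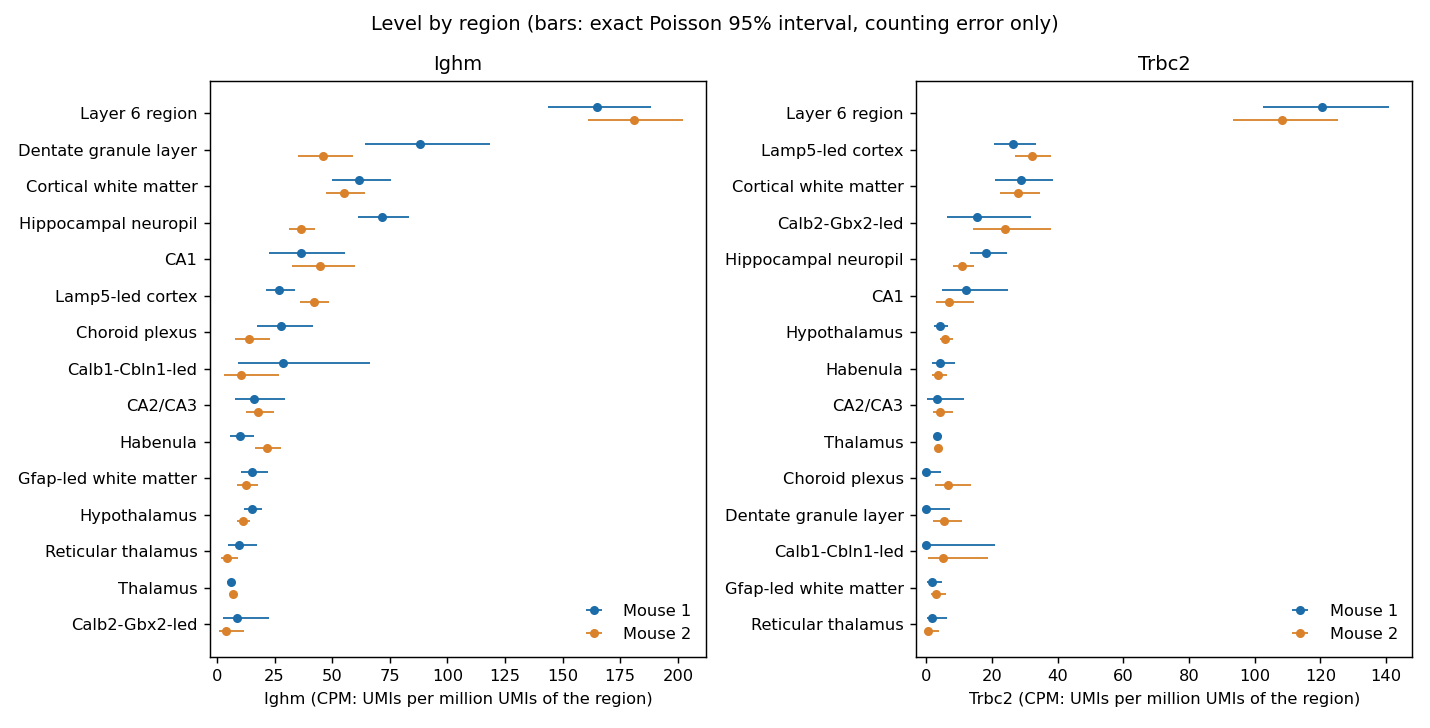
Level in CPM of Ighm (left) and Trbc2 (right) in 15 regions, sorted by the mean of the mice. Points are mice and bars are exact Poisson 95% intervals for counting error. The layer 6 region stands first for both genes, at 165 and 181 CPM of Ighm and 121 and 108 CPM of Trbc2.

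Within the layer 6 region both genes were spread over many spots rather than held by a few. At least 1 Ighm UMI was found in 70.3% of its spots in mouse 1 and in 90.5% in mouse 2, at a median depth of 8983 and 15626 UMIs per spot. Trbc2 was found in 65.5% and 69.5% of the same spots. Spots with at least 5000 UMIs were also thinned to 5000, and shallower spots were left out of all thinned values. Among the thinned spots the shares were 51.0% and 54.3% for Ighm and 47.6% and 34.3% for Trbc2. The thinned shares in the thalamic region, a background with median depths of 9370.5 and 18635 UMIs, were 2.51% and 3.37% for Ighm and 2.30% and 2.22% for Trbc2. The highest layer 6 spot held 8 Ighm UMIs in mouse 1 and 11 in mouse 2, and the highest Trbc2 counts were 5 and 10. Both genes were seen together in 73 of 145 spots and 67 of 105 spots, and neither in 21 and 4.

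Both genes were higher in spots with more layer 6 marker UMIs. Spots were grouped by the summed UMIs of Vxn, Myl4 and Tbr1 per 10000 UMIs, over each whole section. The sum does not mark layer 6 alone, here or in correlations over all spots. Vxn was at 384 and 408 CPM in CA1, against 586 and 643 CPM in the layer 6 region. Myl4 was at 24.2 and 22.3 CPM in CA1, and Tbr1 at 32.9 and 26.3 CPM. Spots without any of these markers held 16.6 and 9.72 CPM of Ighm in mouse 1 and mouse 2. Spots with more than 8 and up to 12 held 121 and 135 CPM, and spots with more than 12 held 179 and 197 CPM. Trbc2 went from 4.45 and 4.30 CPM without markers to 80.6 and 81.0 CPM and then to 141 and 119 CPM. The groups with the most markers are small, with 46 and 32 spots. Igkc was at 45.2 and 9.29 CPM in spots without markers, and had 1 UMI in each mouse in spots above 12.

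**Figure D3:**
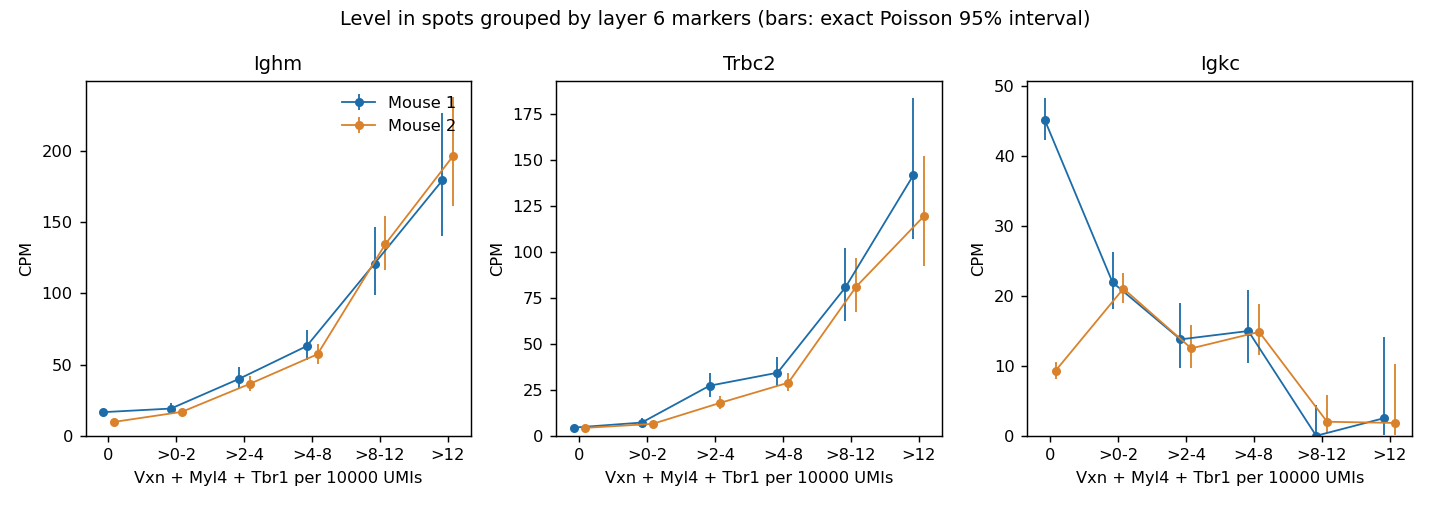
Level in CPM of Ighm, Trbc2 and Igkc in spots grouped by Vxn, Myl4 and Tbr1 UMIs per 10000, for each mouse, with exact Poisson 95% intervals. Ighm and Trbc2 are highest in the last group, at 179 and 197 CPM and at 141 and 119 CPM, where Igkc has 1 UMI in each mouse.

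Correlations over single spots were weak, as counts of 0 and 1 dominate, and are given as a description without a test. Spots of a section share its library and their depth varies, so each value is of log-scaled counts per 10000. Over all spots Pearson's r of Ighm with the summed layer 6 markers was 0.29 in mouse 1 (3712 spots) and 0.41 in mouse 2 (3548 spots). Marker by marker, r of Ighm was 0.26 and 0.40 with Vxn, 0.23 and 0.34 with Myl4, and 0.22 and 0.32 with Tbr1. For Trbc2 r with the summed markers was 0.33 and 0.36, with 0.31 and 0.34 for Vxn, 0.28 and 0.35 for Myl4, and 0.21 and 0.29 for Tbr1. Ighm and Trbc2 correlated with each other at 0.21 and 0.29, at 0.33 and 0.37 over neocortical spots, and at 0.16 in each mouse inside the layer 6 region. Myl4 inside that region correlated with Trbc2 at 0.11 in mouse 1 and 0.33 in mouse 2. The other marker pairs inside that region are not given here, so no general pattern can be read from this pair.

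Few UMIs of the lymphocyte partners lay in the layer 6 region. Igkc held 1053 UMIs in mouse 1 and 746 in mouse 2 over the sections, but 3 UMIs in each in the layer 6 region. Its r over spots was 0.21 and 0.04 with Ighm and -0.0113 and -0.00104 with Trbc2. Cd79a, the B cell receptor's signalling chain, had 5 UMIs in mouse 1 and 15 in mouse 2, none in the layer 6 region. There 0 counts allow up to 2.29 and 1.77 CPM, above its 0.163 and 0.271 CPM over the whole sections. Cd3e, a signalling chain of the T cell receptor, had 0 UMIs in mouse 1 and 4 in mouse 2, again none in that region. Both genes were so rare that their counts cannot tell the layer 6 region from the rest of the section. With so few counts no r with Cd79a or Cd3e can be read, and for Cd3e in mouse 1 none exists.

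Nearly all layer 6 spots were without antibody transcripts. Only 4 layer 6 spots in mouse 1 and 6 in mouse 2 held any UMI of Igkc, of Jchain, the chain that joins IgM and IgA units, or of Igha, the IgA heavy chain. In the other 141 and 99 spots Ighm was at 164 and 176 CPM and Trbc2 at 120 and 104 CPM. These spots make up most of the region, so their levels had to lie near its own. In the 4 and 6 spots with such UMIs Ighm was at 192 CPM (82.9 to 378) and 263 CPM (168 to 391). Trbc2 was at 144 CPM (52.9 to 314) and 186 CPM (108 to 298) there. These intervals overlap those of the other spots, and the difference was not tested.

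In the hippocampal regions, spots with antibody transcripts held more Ighm in mouse 1. Ighm was at 60.1 CPM in mouse 1 and at 34.4 CPM in mouse 2 over all hippocampal spots. In spots with any Igkc, Jchain or Igha UMI it was at 197 CPM in mouse 1 (101 spots) and 32.9 CPM in mouse 2 (147 spots). Without the spot with the most Ighm in each mouse these values were 127.3 and 31.3 CPM. In spots without one it was at 34.5 and 34.9 CPM. A single neuropil spot on the left of mouse 1 held 45 Ighm UMIs beside 92 of Igkc, 12 of Igha and 10 of Jchain. It held no UMI of Trbc2, Cd79a, Vxn, Myl4 or Tbr1. Without that spot the hippocampal level of mouse 1 was 49.1 CPM and r of Ighm with Igkc in the hippocampus went from 0.41 to 0.34; in mouse 2 that r was 0.02.

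The sides of the hippocampus also differed in mouse 1. Its hippocampal Ighm was 2.23 times as high on the left as on the right of the image (exact interval 1.69 to 2.97). Of the 169 UMIs on the left, 45 lay in the single spot named above. The interval takes UMIs as independent, so it is too narrow here, and the ratio without that spot was not computed. In spots without antibody UMIs the ratio was 0.805 (0.544 to 1.18). The ratio in mouse 2 was 1.14 (0.907 to 1.44) over all spots and 1.19 (0.911 to 1.56) without antibody spots.

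**Figure D4:**
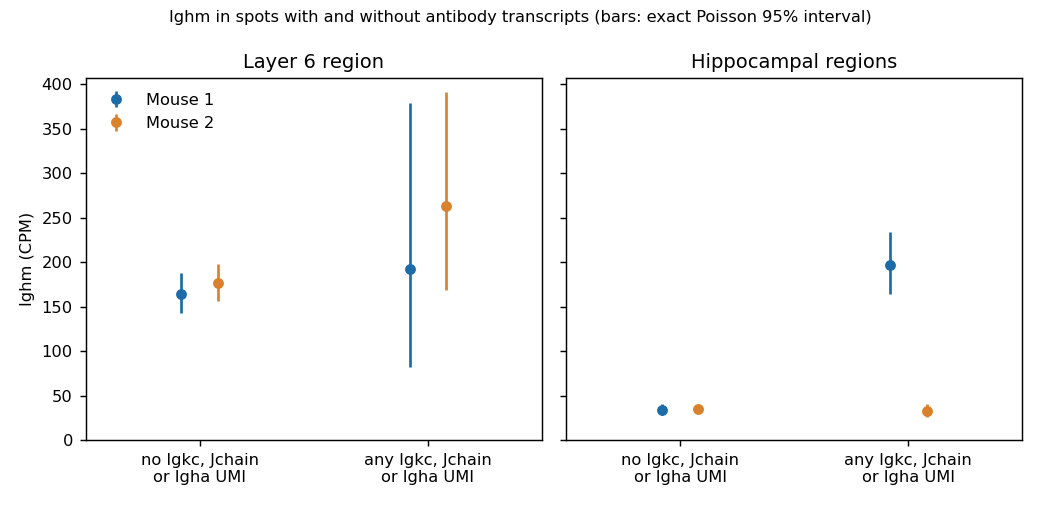
Ighm level in CPM in spots without and with any UMI of Igkc, Jchain or Igha, in the layer 6 region (left) and the hippocampal regions (right), with exact Poisson 95% intervals. In layer 6 nearly all spots, 141 and 99, are without such UMIs and stand at 164 and 176 CPM, while in the hippocampus only mouse 1 is high in spots with them, at 197 CPM, or 127.3 CPM without its highest spot.

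Distance from white matter gave another view of depth, though the clusters that set the white matter and the neocortex used the layer 6 markers among other genes. Neocortical spots were grouped by their distance, in spot pitches, from the nearest spot of cortical white matter. As that white matter also held markers of deep cortex, its edge is not a sharp border of layer 6. Ighm was highest in the first pitch, at 173 CPM in mouse 1 and 174 CPM in mouse 2. At 2 pitches it was at 128 and 122 CPM, at 3 at 61.1 and 61.5 CPM, and at 5 at 9.92 and 22.7 CPM. Trbc2 also peaked in the first pitch, at 110 and 91.0 CPM, stayed at 103 and 82.4 CPM at 2 pitches, and was still at 38.4 and 29.8 CPM at 6 pitches. Ccn2, a marker of layer 6b, the thin sheet below layer 6, was at 67.5 and 88.2 CPM in the white matter itself, at 57.6 and 70.8 CPM in the first pitch and at 6.04 and 12.9 CPM at 2 pitches. Etv1, a layer 5 marker, peaked at 4 pitches in both mice.

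Far from the white matter less of the Ighm level was left than of the Trbc2 level. The level at 4.5 to 6.5 pitches over that within 2.5 pitches was 0.103 in mouse 1 (exact 95% interval 0.0523 to 0.184) and 0.157 in mouse 2 (0.103 to 0.231) for Ighm. For Trbc2 it was 0.306 (0.192 to 0.469) and 0.296 (0.196 to 0.433). These intervals were apart in mouse 1 and overlapped in mouse 2, and with white matter drawn from myelin genes instead they overlapped in both. The same ratio was 0.376 and 0.412 for Vxn, 0.376 and 0.254 for Myl4, and 0.410 and 0.430 for Tbr1.

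**Figure D5:**
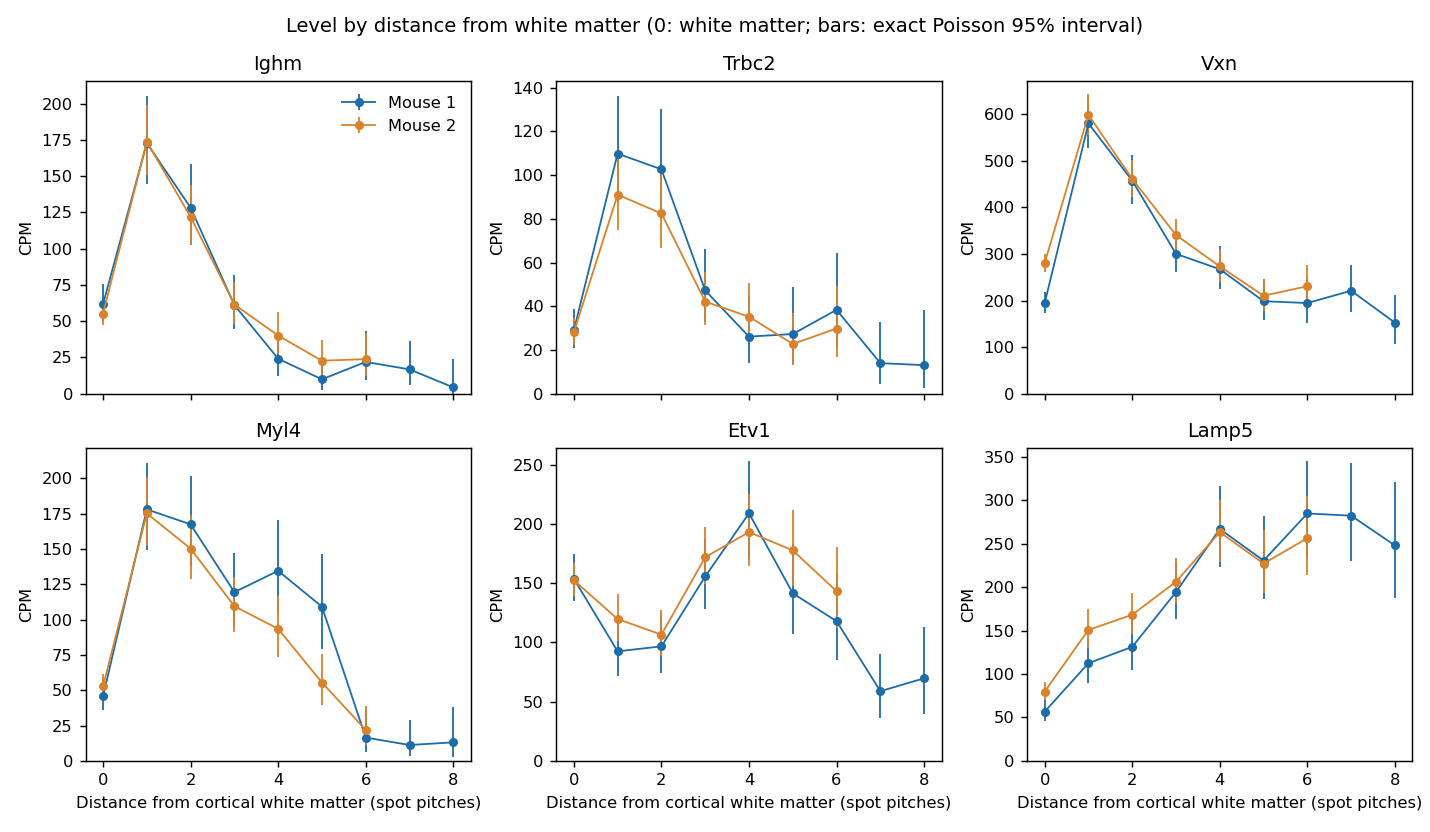
Level in CPM by distance from the cortical white matter, in spot pitches, for Ighm, Trbc2, the layer 6 markers Vxn and Myl4, the layer 5 marker Etv1 and Lamp5. Points are mice, bars are exact Poisson 95% intervals, and groups under 20 spots are left out. Ighm and Trbc2 peak in the first pitch, at 173 and 174 CPM and at 110 and 91.0 CPM.

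Along the layer both genes were present from the midline side to the lateral edge, with less Trbc2 near the midline. The layer 6 spots of each mouse were split by distance from the midline into 3 parts of like size. In the medial part Trbc2 was at 82.9 CPM in mouse 1 and 61.2 in mouse 2, against 131 and 145 CPM in the lateral part. The medial over lateral ratio was 0.632 (interval 0.403 to 0.976) and 0.422 (0.267 to 0.649). Ighm was at 134 and 152 CPM medially and at 170 and 228 CPM laterally, a ratio of 0.789 (0.549 to 1.13) and 0.666 (0.493 to 0.892). Myl4 was the most uneven of the rule's markers, with ratios of 0.153 and 0.191, whereas Tbr1 gave 0.924 and 0.798.

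Summed per mouse, the layer 6 region was set against the Lamp5-led cortex with edgeR's quasi-likelihood test over all genes, with the mouse as a block. Ighm was higher by a log2 value of 2.22 ± 0.12 (SE) and Trbc2 by 1.85 ± 0.13, given without p since both genes were chosen for this pattern. Mouse by mouse the log2 difference was 2.59 and 2.10 for Ighm and 2.16 and 1.74 for Trbc2. Vxn, Myl4 and Tbr1, which took part in the clustering, differed by 1.28, 1.39 and 1.01. When layer 6 was instead drawn as the top 10% of all spots by these markers, the values were 1.44 for Ighm and 0.96 for Trbc2. Those spots were not limited to the neocortex and were set against the remaining neocortical spots. As Vxn was also high in CA1, this group is wider than layer 6.

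The other antigen receptor genes, which had no part in the clustering, mostly had too few UMIs to be tested. Of the 16 listed B cell receptor genes besides Ighm, 1 was tested and it was higher; of 13 plasma cell and class-switched antibody genes, 2 were tested and 1 was higher; of 18 T cell receptor genes besides Trbc2 and 3 recombination genes, none was tested. Over all 11078 genes tested 11.1% passed an adjusted p of 0.05 in this comparison, 5.52% higher and 5.63% lower in layer 6, with a median log2 difference of -0.00071. The 11078 genes include genes that took part in drawing the regions, unlike the listed genes. A rare gene enters such a test through the region where it is high, so these counts are a description. Blnk, an adaptor in B cell receptor signalling, was at 15.3 and 9.43 CPM in layer 6 (20 and 16 UMIs) against 4.06 and 5.69 CPM (11 and 24 UMIs). Its log2 difference was 1.16 ± 0.36 (SE). The pass counted above is not read as a result for Blnk, and it was lost without the mouse block or with layer 6 drawn from marker counts.

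Ighg2c, the heavy chain constant region of an IgG class, had 15 UMIs in layer 6 in mouse 1 and 16 in mouse 2, of 55 and 45 in the whole sections, or 11.5 and 9.43 CPM. The Lamp5-led cortex held 6 and 10 UMIs, or 2.22 and 2.37 CPM. The log2 difference was 2.06 ± 0.39 (SE). Both Blnk and Ighg2c got past the filter through their layer 6 counts, so no p is given for them. Ighg2b, a close relative whose reads may be hard to tell from those of Ighg2c, had 0 UMIs in the layer 6 region of either mouse. Xbp1, a transcription factor of secretory cells including plasma cells, was at 97.7 and 97.2 CPM against 72.4 and 79.4 CPM (adjusted p = 0.108 in edgeR).

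Partner chains and segments of assembled receptors had few UMIs. Zap70, a kinase of T cell receptor signalling, had 124 and 272 UMIs over the sections, with 0 and 3 of them in the layer 6 region. Trac, the constant region of the T cell receptor alpha chain, had 67 and 119 UMIs over the sections and 0 in the layer 6 region of either mouse. The 185 Ighv segments together received 1 UMI in each mouse, the 35 Trbv segments 1 and 0, and the D and J segments of both loci 0. Rag1, of the recombinase, had 4 and 5 UMIs over the sections, and Rag2 had none. The assay reads near the poly(A) end, far from the V segments, so these counts do not show whether the RNAs carried one: the 160 Igkv segments had only 23 and 8 UMIs beside 1053 and 746 of Igkc.

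Haemoglobin RNA is a sign of blood left in these unperfused brains. The blood genes were not left out of the clustering that drew the regions, so their differences are a description without a test outcome. In the edgeR fit Hbb-bs, Hba-a1 and Hba-a2 were lower in the layer 6 region than in the Lamp5-led cortex. Hbb-bt was at 97.0 and 213 CPM against 158 and 183 CPM. With layer 6 drawn from marker counts Hbb-bs turned (log2 0.078). Hbb-bs was at 634 CPM in mouse 1 and 1027 CPM in mouse 2 in the layer 6 region, against 1275 and 1188 CPM in the Lamp5-led cortex. Over spots its r was -0.01 and -0.02 with Ighm and 0.00086 and -0.04 with Trbc2.

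Over the 16 regions the genes closest in pattern to Ighm were Ipcef1, Ngef, Hs3st2, Tmem121b, Myl4, Kcnh3, Gas7 and Tbr1. Likeness is the lower of the mice's Pearson r of log2(CPM + 5), over genes with at least 200 UMIs in each section, and is a description over 16 regions that share their library. It was 0.893 for Ipcef1, which had 98.5 and 115 CPM in layer 6 and 2.23 and 2.77 CPM in the thalamic region, and 0.795 for Tbr1. Igkc ranked 3315th by likeness to Ighm, at 0.0071.

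Trbc2 was closest to Dkkl1, Incenp, Satb1, Ephb6, Hs3st2, Arpp19, Ldb2 and Myl4, from 0.862 down to 0.793. Dkkl1 was not highest where Trbc2 was: it had 39.7 and 34.2 CPM in layer 6 against 52.8 and 54.5 CPM in the Lamp5-led cortex. Hs3st2, a heparan sulfate sulfotransferase gene, and Myl4 were on both lists. Hs3st2 had 70.2 and 76.6 CPM in layer 6 and 22.2 and 28.9 CPM in the Lamp5-led cortex. Between the members themselves the likeness was 0.544.

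One of these genes, Ephb6, an Eph receptor without kinase activity, lies 55653 bp from Trbc2. It was at 90.9 and 74.2 CPM in layer 6 against 42.1 and 54.8 CPM in the Lamp5-led cortex, a ratio of 2.16 (1.66 to 2.82) in mouse 1 and 1.35 (1.08 to 1.69) in mouse 2, below the 4.54 and 3.36 of Trbc2. Within 200000 bp of Trbc2 RefSeq lists 36 genes, of which 29 were measured. Around Ighm it lists 47, of which 39 were measured, Ighg2c among them at 129894 bp. Ighd, the IgD heavy chain and the nearest neighbour of Ighm at 2502 bp, had 0 UMIs in layer 6 in mouse 1 and 1 in mouse 2.

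The left and right sides of the layer 6 region, which had no part in choosing the genes, were compared in the same way. Ighm was at 186 CPM on the left and 143 CPM on the right of the image in mouse 1, and at 190 and 171 CPM in mouse 2 (from 189.5 on the left). Trbc2 was at 138 and 103 CPM in mouse 1 and at 109 and 107 CPM in mouse 2. The log2 difference of left minus right was 0.27 ± 0.14 for Ighm and 0.23 ± 0.17 for Trbc2, and neither passed edgeR's quasi-likelihood test (adjusted p = 0.994 for each, unadjusted p = 0.055 and 0.165). DESeq2 gave unadjusted p of 0.352 and 0.512. Of 8179 genes tested 0.0245% passed, which is the 2 genes Npy and Ttr, both higher on the left (adjusted p = 0.0116 in edgeR), and 385 had an unadjusted p under 0.05. Npy, a peptide of interneurons, was at 420 and 239 CPM in mouse 1 and 318 and 259 CPM in mouse 2. Ttr, the choroid plexus transport protein, was at 255 and 81.6 CPM in mouse 1 but at 233 and 231 CPM in mouse 2, so 1 mouse carried its difference. Neither gene passed in DESeq2, without the filter on low counts, without the mouse block, or with each section clustered alone, and Npy did not pass with thinned spots. Hbb-bs was at 899 and 365 CPM on the left and right in mouse 1 and at 858 and 1215 CPM in mouse 2, and its part in the values of the sides was not tested. The counting interval of the left over right ratio of Ighm ran from 0.987 to 1.72 in mouse 1 and from 0.879 to 1.40 in mouse 2. That of Trbc2 ran from 0.965 to 1.86 and from 0.754 to 1.37.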

How the data were processed

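Members and gene lists were picked with earlier results of these data known. The deposited values are counts, whole UMIs for each gene at each spot. Per the file headers the authors used Space Ranger 1.3.1, and per the submitters' processing notes the build mm10. Spots under 500 UMIs were dropped. The rest were scaled to 10000, logged and clustered jointly in scanpy 1.11.5 (2000 variable genes, 30 components, 15 neighbours, Leiden resolution 1.0) without 597 antigen receptor genes. A region took a marker set's name where at least 3 of its markers were among 100 leading genes. At least 1 also had to be among the first 10, with no other set holding more there. This rule was revised after the clusters were seen. The level in 1 of the 16 regions is not reported here. A spot holds several cells, so no doublet caller was run. The midline was the axis giving the best mirror match, at 77.2% of spots in mouse 1 and 86.8% in mouse 2.

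For each comparison the UMIs of every mouse and region were added up, giving 4 libraries with 1 residual degree of freedom. They were tested with edgeR 4.0.16 (quasi-likelihood F-test after TMM scaling and filterByExpr; R 4.3.3), adjusted by Benjamini-Hochberg at 0.05. Mouse was a block because both libraries of a pair come from 1 animal. The spread is moderated over genes, so an SE is not the spread between mice. DESeq2 1.42.0 was an alternative, and the fits were tested on simulated data. Intervals are exact at 95%, a count of 0 allows 3 counts, and both cover counting error only. Named genes were the members, the rule's markers, the 8 genes most like each member, up to 3 passing genes of a list (or its most abundant) and up to 5 per side. Locus neighbours, blood, Ccn2, Etv1 and the hippocampal spots were chosen after values were seen.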

Additional observations from a re-analysis of the deposited data

How the results depend on the processing

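Counts of 0 and 1 limit single spots, and 2 mice limit every comparison. Hbb-bs changed direction (log2 0.078) with layer 6 drawn from marker counts, and the near-0 r of Trbc2 with Igkc changed sign. With layer 6 drawn so, the layer 6 difference was 1.44 for Ighm and 0.96 for Trbc2; in single mice, values with no test, it ran from 2.10 to 2.59 and from 1.74 to 2.16. The number of genes passing was 1235 in edgeR, 167 in DESeq2 with 6057 tested, 344 with no replicate block and 500 with thinned spots and 9200 tested; which genes were shared was not counted. For the sides, 0 genes passed with DESeq2, no filter, no replicate block or sections clustered alone, against 2; single mice gave 0.14 to 0.37 for Ighm and 0.02 to 0.41 for Trbc2. Without mitochondrial and haemoglobin genes the layer 6 levels were 203 CPM of Ighm and 134 CPM of Trbc2, and after thinning Ighm was at 152 CPM; single mice gave 165 to 181 and 108 to 121 CPM. The mean r with the layer 6 markers after thinning was 0.258 for Ighm and 0.252 for Trbc2 (Spearman 0.283); single mice gave 0.286 to 0.410 and 0.329 to 0.363. The mean r of Trbc2 with Igkc was -0.0062, 0.031 over neocortical spots and 0.0028 after thinning, with -0.0113 to -0.00104 in single mice, and that of Ighm 0.0352 to 0.211. With white matter drawn from myelin genes the far over near ratio of Trbc2 was 0.279; single mice gave 0.296 to 0.306, and 0.103 to 0.157 for Ighm. Leaving out the highest hippocampal spot, also among the antibody spots, or the antibody spots was chosen after seeing the data. Leiden resolution 0.6 left 1 neocortical cluster, so it was not run. The cause of these changes was not tested.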

Other observations

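Ighg2b, the heavy chain constant region of another IgG class, had 12 of its 33 UMIs in the cortical white matter in mouse 1 and 29 of 30 in mouse 2, or 7.72 and 9.36 CPM, and none in the layer 6 region. In mouse 1 the hypothalamus held 10 more and the choroid plexus 5, where mouse 2 had none. Ighg2c had 2 and 9 UMIs in that white matter, and in mouse 1 it also had 13 UMIs in the choroid plexus, where mouse 2 had 0.

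Zap70 had most of its UMIs in the main thalamic region, which is also the largest, with 73 of 124 UMIs in mouse 1 and 157 of 272 in mouse 2. Its level there was 7.39 and 7.92 CPM, against 4.04 and 4.92 CPM over the whole sections. A small unnamed region led by Calb1 and Cbln1, with 30 and 37 spots, held 11.4 and 15.7 CPM. It had only 175145 and 382345 UMIs of all genes, so these levels rest on a handful of Zap70 UMIs. They cannot be ranked against the thalamic region. An unnamed region led by Calb2, Nptxr and Gbx2 held 15.6 and 14.7 CPM from 7 and 11 UMIs. These genes were chosen after their values were seen, and no test was made of them.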
